A study of Homo sapiens with 34 samples.

Results

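The genes of major histocompatibility complex (MHC) class I presentation were followed across 34 lymphoma lines through 9 of the 31975 genes in the table: the heavy chains HLA-B, HLA-C and HLA-E, the light chain B2M, the peptide transporter TAP1 and TAP2, the loading factor TAPBP, the transcriptional activator NLRC5 and the immunoproteasome subunit PSMB9. They were chosen by name, and all 9 had a row and passed the filter on low values. RNA sequencing of total RNA gave 1 library for each of 3 Burkitt lymphoma (BL) lines, 11 mantle cell lymphoma (MCL) lines, 6 activated B-cell-like (ABC) and 14 germinal centre B-cell-like (GCB) lines of diffuse large B-cell lymphoma (DLBCL). All are established human lines, and the labels give no treatment, allele or age for any of them. Each library is a different cell line, so the spread within a pathology is a spread between lines, and no line was sequenced more than once here. The lines were made into libraries at several points in time, and the labels mark 30 of them as re-analysed.

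Class I molecules show peptides from inside the cell to CD8 T cells. Peptides cut by the proteasome, in which PSMB9 can replace a constitutive subunit, are carried into the endoplasmic reticulum by the TAP1 and TAP2 transporter, and tapasin (TAPBP) holds the empty heavy chain and B2M beside it until a peptide is bound. NLRC5 is a transactivator that binds the promoters of class I genes through the proteins assembled on their SXY module, and interferons raise most genes of the pathway. Loss of B2M, of heavy chains or of their regulators is a known way for B-cell lymphomas to evade T cells.

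In GRCh38.p14 (RefSeq) 7 of the 9 genes lie on chromosome 6: HLA-E at chr6:30489509-30494194, HLA-C at chr6:31268749-31272092, HLA-B at chr6:31353875-31357179, TAP2 at chr6:32821831-32838739, TAP1 at chr6:32845209-32853704, PSMB9 at chr6:32854192-32859851 and TAPBP at chr6:33299694-33314078. B2M is at chr15:44711517-44718145 and NLRC5 at chr16:56989557-57083520. TAP1 and PSMB9 are read in opposite directions from starts 488 bases apart.

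The RefSeq promoter table held 7 of the members, without HLA-E and NLRC5. The 250 bases before the start are shown for HLA-B at chr6:31357180-31357429 (minus strand), HLA-C at chr6:31272093-31272342 (minus), B2M at chr15:44711267-44711516 (plus) and TAP1 at chr6:32853705-32853954 (minus). Capitals mark matches, on either strand, to TGACG (the half-site of the X2 box), ATTGG (the Y box, an inverted CCAAT box), GAAA, any 2 bases and GAAA (the core of the interferon-stimulated response element), and to GGG, any 2 bases, TT, any base and CC (a kappa B site).
HLA-B: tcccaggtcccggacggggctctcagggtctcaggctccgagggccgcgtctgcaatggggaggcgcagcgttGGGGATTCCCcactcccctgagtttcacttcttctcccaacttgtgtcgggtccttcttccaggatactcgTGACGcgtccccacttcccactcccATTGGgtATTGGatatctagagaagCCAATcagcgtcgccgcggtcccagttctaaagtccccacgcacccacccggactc
HLA-C: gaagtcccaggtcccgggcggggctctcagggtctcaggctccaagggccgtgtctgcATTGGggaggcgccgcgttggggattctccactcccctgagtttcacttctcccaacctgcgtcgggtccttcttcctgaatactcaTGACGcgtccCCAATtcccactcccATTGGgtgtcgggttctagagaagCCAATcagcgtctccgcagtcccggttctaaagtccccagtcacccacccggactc
B2M: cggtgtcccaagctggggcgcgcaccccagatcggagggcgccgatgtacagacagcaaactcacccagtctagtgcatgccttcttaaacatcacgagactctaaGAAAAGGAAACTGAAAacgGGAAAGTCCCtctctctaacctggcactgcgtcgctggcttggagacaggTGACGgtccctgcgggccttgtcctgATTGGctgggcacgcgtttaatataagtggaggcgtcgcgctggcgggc
TAP1: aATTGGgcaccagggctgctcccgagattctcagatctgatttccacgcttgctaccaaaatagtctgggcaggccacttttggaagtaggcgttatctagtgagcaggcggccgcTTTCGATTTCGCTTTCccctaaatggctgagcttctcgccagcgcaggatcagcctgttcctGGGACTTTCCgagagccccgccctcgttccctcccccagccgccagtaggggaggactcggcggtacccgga

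TGACG followed within 40 bases by ATTGG on the same strand, the order of the X2 and Y boxes, was present in HLA-B, HLA-C and B2M, with the first bases of the pair 25 apart in HLA-B and HLA-C and 26 apart in B2M. A further ATTGG of HLA-B lies 32 bases after its TGACG. Of 34943 RefSeq promoters of this length, 0.527% held such a pair. TGACG alone was in 5 of the 7 member promoters and in 21.2% of all promoters, and ATTGG in 5 of the 7 and in 32% of all. The interferon response core was in B2M, TAP1, TAP2 and TAPBP, against 3.02% of all promoters, and in B2M, TAP1 and TAPBP 2 matches overlap. The kappa B letters were in HLA-B, B2M, TAP1 and TAPBP, against 5.05% of all, and no match to them overlaps another motif in B2M or TAP1. The kappa B letters and the 40-base limit were set after these promoters had been read, so the matches to them are a description only, as all of these matches are of letters and not of binding.

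The libraries fall into 2 classes that touch every comparison with GCB DLBCL. In 9 libraries, 8 of GCB DLBCL and the ABC DLBCL line NU-DUL-1, both ZNF593 and EMC6 have 0 reads, and these second-class libraries hold 2.55 to 22.7 M reads, against 22.6 to 165 M in the 25 first-class libraries. All 8 GCB DLBCL libraries of the second class hold under 10 M reads. The split was known from earlier results of these data. In the first class are all 3 BL, all 11 MCL, 5 ABC DLBCL and 6 GCB DLBCL lines, so the main results are given in all 34 lines and in the first class. B-cell markers were present throughout, with a summed level of 2888 to 3682 reads per 1 M reads of the library (CPM) in BL, 1164 to 6106 in MCL, 1701 to 4120 in ABC DLBCL and 1307 to 7511 in GCB DLBCL. Summed T-cell markers reached 166 CPM in Karpas422 and less in every other line. Summed epithelial markers reached 194 CPM in Pfeiffer, stromal markers 54.2 CPM in Z-138, myeloid markers 12.1 CPM in GRANTA519 and natural killer cell markers 7.85 CPM in NU-DHL-1. In bulk libraries fewer cells with a transcript and less of it per cell cannot be told apart.

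Values below are the deposited variance-stabilised log2 read counts, on which 0 reads is 4.55, and differences are in the same log2 units. Among the 4 pathologies 5 of the 9 genes differed by limma's F test at an adjusted p under 0.05, namely HLA-B, HLA-C, B2M, NLRC5 and TAP2. Of all 22167 genes tested 13.2% differed. NLRC5 was the 1 that differed in the first class, where 3.55% of all genes did.

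MCL lines had higher values than GCB DLBCL lines for HLA-B, HLA-C, B2M and NLRC5, 4 of the 9 genes, all higher in MCL, while 11% of all genes were higher in MCL and 12.7% lower (23.7% called in all). The median difference over the 9 genes was 1.13, and over all genes tested it was -0.02. Only NLRC5 of the 9 was called in the first class, where 1.56% of all genes were called higher in MCL, 1.27% lower and 2.83% in all. With the class as a term in the limma fit 0 members were called, where 2.35% of all genes were, and 4 had an unadjusted p under 0.05. In the other 5 contrasts, 0 of the 9 genes passed in 34 lines, where 0.726% of genes passed for ABC DLBCL against GCB DLBCL, 0.153% for BL against GCB DLBCL, 0.69% for MCL against ABC DLBCL, 0.117% for BL against ABC DLBCL and 1.17% for BL against MCL. At an unadjusted p under 0.05 they were 4, 4, 1, 2 and 1 of the 9 in the same order. In the first class 1 of the 9 passed for ABC DLBCL against GCB DLBCL and 0 in the other 4 (1, 0, 2 and 1 at an unadjusted p under 0.05), where 0.171% of genes passed for BL against GCB DLBCL, 0.735% for MCL against ABC DLBCL, 0.537% for BL against ABC DLBCL and 1.54% for BL against MCL. limma-voom on the recovered reads called 1, 0, 0, 0 and 0 in all 34 lines, where it called 0.762%, 0.0767%, 0.889%, 0.32% and 0.821% of all genes.

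In the F test and 4 of the 6 contrasts, the number of all genes called moved by over 1.5 times with single lines left out. The 161 genes called for ABC DLBCL against GCB DLBCL became 25 without OCI-Ly10 and 431 without NU-DUL-1, and also moved that far without HBL-1, OCI-Ly3, DB, Karpas422, Pfeiffer, SU-DHL-10, SU-DHL-4, SU-DHL-5, SU-DHL-6, Toledo, WSU-DLCL2, HBL-2 or Mino. The 259 for BL against MCL became 53 without Daudi, 100 without Raji, 112 without Ramos, 164 without SP-49 and 171 without SP-53. The 26 for BL against ABC DLBCL ran from 10 without Daudi to 55 without SU-DHL-8, with 16 without OCI-Ly10, 41 without Raji, 42 without NU-DHL-1 or OCI-Ly7 and 53 without NU-DUL-1. The 153 for MCL against ABC DLBCL became 91 without OCI-Ly10, 96 without OCI-Ly3 and 243 without JVM2. The F test called 1898 genes without WSU-DLCL2 and 1950 without Karpas422, against 2937 in all lines. The counts for MCL and for BL against GCB DLBCL stayed within 1.5 times.

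**Figure D1:**
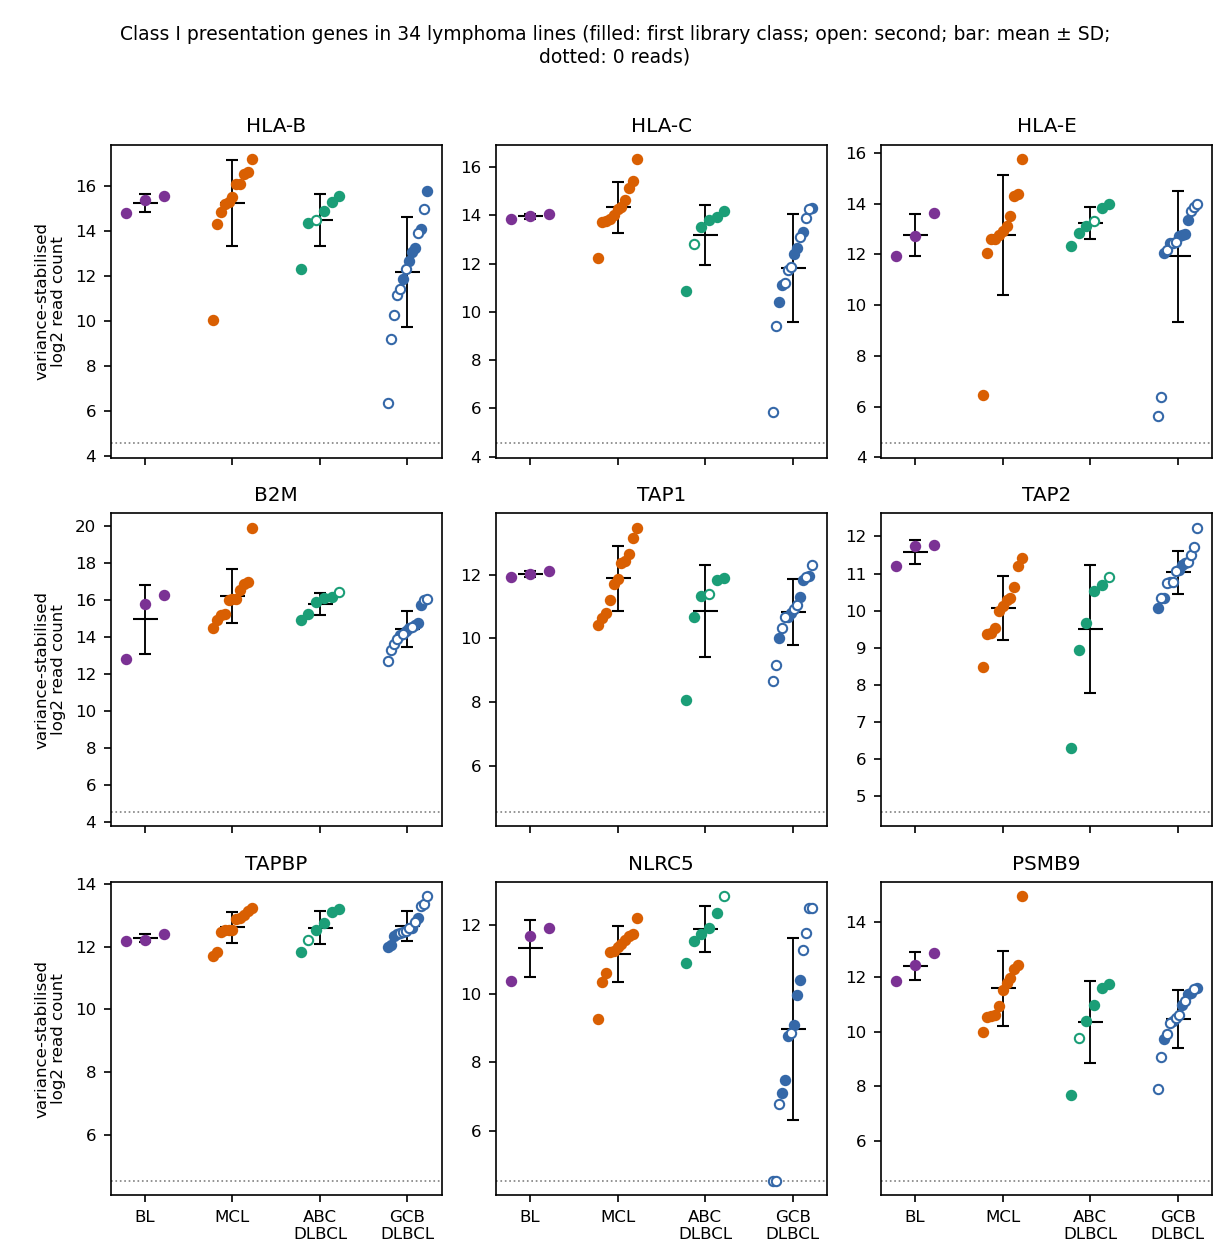
Variance-stabilised log2 read count (vertical axis) of the 9 genes in each line, by pathology (horizontal axis). Filled points are first-class and open points second-class libraries, bars are mean ± SD over lines, and the dotted line is 0 reads. The MCL points of HLA-B lie above most GCB DLBCL points, and 2 GCB DLBCL lines sit at 0 reads of NLRC5.

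HLA-B, which presents peptides to CD8 T cells, was at 14.82 in Daudi, 15.40 in Raji and 15.59 in Ramos among the BL lines. The lowest, median and highest values were 10.07, 15.54 and 17.22 in MCL, 12.33, 14.71 and 15.59 in ABC DLBCL, and 6.36, 12.50 and 15.80 in GCB DLBCL. All but 1 of the MCL lines (REC-1) lie above the GCB DLBCL median, and the groups overlap. The mean was 15.27 ± 1.92 in MCL and 12.18 ± 2.45 in GCB DLBCL (SD, n = 11 and 14), a difference of 3.09 ± 0.77 (SE, adjusted p = 0.00615). In the first class the 6 GCB DLBCL lines ran from 11.86 to 15.80 and the difference was 1.80 ± 0.78 (adjusted p = 0.23).

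HLA-C, the other classical heavy chain among the members, also a ligand of killer cell receptors, was at 13.86, 13.99 and 14.05 in Raji, Ramos and Daudi. Its lowest, median and highest values were 12.23, 14.28 and 16.34 in MCL, 10.87, 13.68 and 14.20 in ABC DLBCL, and 5.87, 12.12 and 14.32 in GCB DLBCL. MCL exceeded GCB DLBCL by 2.51 ± 0.64 (adjusted p = 0.00718), and in the first class by 1.97 ± 0.58 (adjusted p = 0.0644). REC-1 was the lowest MCL line for both HLA-B and HLA-C, and JVM2 the highest.

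HLA-E, a nonclassical heavy chain recognised by the inhibitory receptor NKG2A, did not pass in any contrast. It was at 11.94, 12.72 and 13.61 in Daudi, Raji and Ramos, and ran from 6.45 over a median of 12.90 to 15.75 in MCL, from 12.32 over 13.20 to 13.97 in ABC DLBCL, and from 5.64 over 12.60 to 13.99 in GCB DLBCL. The lowest were REC-1 at 6.45, OCI-Ly1 at 6.40 and DB at 5.64, and the other 31 lines lie at 11.94 or higher. The difference of MCL from GCB DLBCL was 0.84 ± 0.84 (adjusted p = 0.473). Mean HLA-E was 12.76 in MCL, 11.92 in GCB DLBCL and 12.69 in the first-class GCB DLBCL lines.

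B2M, the light chain needed by every classical heavy chain, was at 12.84 in Daudi, 15.81 in Raji and 16.30 in Ramos. It ran from 14.52 over a median of 16.07 to 19.93 in MCL, from 14.92 over 16.02 to 16.45 in ABC DLBCL, and from 12.75 over 14.41 to 16.09 in GCB DLBCL. JVM2 is the highest MCL line at 19.93, above the next at 17.02. MCL exceeded GCB DLBCL by 1.76 ± 0.46 (adjusted p = 0.00834), by 1.53 ± 0.61 in the first class (adjusted p = 0.183) and by 1.39 without JVM2, still called. BL minus MCL was -1.24 ± 0.74 (adjusted p = 0.599) and -0.17 without Daudi. Daudi is known as a line with no class I at its surface because of a defect in B2M, and its B2M reads were 5587, or 247 CPM, against 1301 CPM in Raji and 1964 CPM in Ramos.

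Neither transporter subunit passed for MCL against GCB DLBCL in 34 lines, and their differences had opposite signs. Both lay near the threshold in 34 lines: TAP1 passed without any 1 of 6 lines and TAP2 without any 1 of 8. Neither passed in the first class. Mean TAP1 was 11.88 in MCL, 10.83 in GCB DLBCL and 11.09 in the first-class GCB DLBCL lines. Mean TAP2 was 10.06, 11.04 and 10.80 in the same order. TAP1 was at 12.11, 11.93 and 12.02 in Raji, Ramos and Daudi, ran from 10.42 over 11.86 to 13.47 in MCL, from 8.08 over 11.37 to 11.89 in ABC DLBCL, and from 8.67 over 10.85 to 12.30 in GCB DLBCL, with MCL minus GCB DLBCL at 1.05 ± 0.42 (adjusted p = 0.0627). TAP2 was at 11.77, 11.21 and 11.76 in Raji, Ramos and Daudi, ran from 8.47 over 10.11 to 11.41 in MCL, from 6.29 over 10.10 to 10.90 in ABC DLBCL, and from 10.07 over 11.09 to 12.24 in GCB DLBCL, and MCL minus GCB DLBCL was -0.97 ± 0.37 (adjusted p = 0.0525). TAP2 differed among the pathologies by the F test (adjusted p = 0.0264), its means being 11.58 in BL, 10.06 in MCL, 9.50 in ABC DLBCL and 11.04 in GCB DLBCL. OCI-Ly10 alone is at 6.29, and without it TAP2 in BL exceeded that in ABC DLBCL by 1.43, against 2.07 ± 0.65 with it (adjusted p = 0.232), and ABC DLBCL minus GCB DLBCL was -0.89, against -1.53 ± 0.45 with it.

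TAPBP, which bridges the transporter and the heavy chain, varied least, with an SD of 0.47 over 34 lines. Its lines had a median of 12.21 in BL, 12.54 in MCL, 12.64 in ABC DLBCL and 12.53 in GCB DLBCL, and its highest line was GCB DLBCL SU-DHL-6 at 13.60. MCL minus GCB DLBCL was -0.05 ± 0.20 (adjusted p = 0.874) and 0.23 ± 0.23 in the first class, so the sign changed between them. PSMB9 was at 12.44, 12.86 and 11.84 in Raji, Ramos and Daudi, ran from 9.98 over 11.51 to 14.94 in MCL, from 7.67 over 10.67 to 11.74 in ABC DLBCL, and from 7.90 over 10.55 to 11.61 in GCB DLBCL. Its difference of MCL from GCB DLBCL was 1.13 ± 0.47 (adjusted p = 0.0757). Mean PSMB9 was 11.59 in MCL, 10.46 in GCB DLBCL and 10.91 in the first-class GCB DLBCL lines.

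NLRC5 had an SD of 2.64 among GCB DLBCL lines, close to the 2.58 of HLA-E. It was at 10.38, 11.68 and 11.92 in Raji, Ramos and Daudi, ran from 9.27 over 11.37 to 12.21 in MCL, from 10.90 over 11.82 to 12.83 in ABC DLBCL, and from 4.55 over 8.97 to 12.51 in GCB DLBCL. In the first class the GCB DLBCL lines were at 7.10 (HT), 7.49 (SU-DHL-10), 8.76 (SU-DHL-5), 9.09 (SU-DHL-4), 9.97 (Toledo) and 10.40 (Pfeiffer). The first-class ABC DLBCL lines ran from 10.90 to 12.34, and the MCL lines REC-1 (9.27) and Mino (10.33) lay among the GCB DLBCL values. Second-class GCB DLBCL lines were at 12.51 (OCI-Ly7), 12.50 (NU-DHL-1), 11.77 (DOHH-2) and 11.26 (Karpas422). The others of that class were at 8.85 (DB), 6.79 (OCI-Ly1) and 4.55 (SU-DHL-6 and WSU-DLCL2). MCL exceeded GCB DLBCL by 2.18 ± 0.70 in 34 lines (adjusted p = 0.0247) and by 2.35 ± 0.45 in the first class (adjusted p = 0.00719). ABC DLBCL exceeded GCB DLBCL by 2.91 ± 0.85 in 34 lines (adjusted p = 0.0938) and by 2.89 ± 0.54 in the first class (adjusted p = 0.0358), where 0.226% of all genes were called. With the class as a term the MCL difference was 2.44 ± 0.86 (adjusted p = 0.134). Both contrasts share the GCB DLBCL lines.

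Over all lines, the differences of several members between the other pathologies were of a similar size but had wider errors. BL minus GCB DLBCL was 3.10 ± 1.21 for HLA-B (adjusted p = 0.278) and 2.14 ± 1.01 for HLA-C (adjusted p = 0.317). Over first-class lines these were 1.81 ± 1.09 and 1.60 ± 0.80. ABC DLBCL minus GCB DLBCL was 2.32 ± 0.93 for HLA-B (adjusted p = 0.21) and -1.53 ± 0.45 for TAP2 (adjusted p = 0.094). Mean HLA-B in ABC DLBCL and GCB DLBCL was 14.50 and 12.18 over all lines, and 14.50 and 13.47 over first-class lines. Mean TAP2 was 9.50 and 11.04 over all lines, and 9.22 and 10.80 over first-class lines. The HLA-B means thus lay closer together in the first class, and the TAP2 means did not. PSMB9 was higher in BL than in ABC DLBCL by 2.03 ± 0.83 (adjusted p = 0.453), and TAP2 in BL than in MCL by 1.51 ± 0.60 (adjusted p = 0.265). None of these passed the adjusted threshold.

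Single lines had profiles of their own. GRANTA519, an MCL line, lay above the 34-line median in 9 of the 9 genes, and JVM2 in 8 of the 9, with TAP2 the exception at -0.73. The MCL line SP-53, the BL line Ramos and the GCB DLBCL line DOHH-2 were also above it in 8 of the 9. The MCL lines REC-1 and UPN1 lay above it in 1 of the 9, and the GCB DLBCL lines Toledo and WSU-DLCL2 in 0. TAP2 was the lowest member relative to its median in 7 of the 11 MCL lines.

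**Figure D2:**
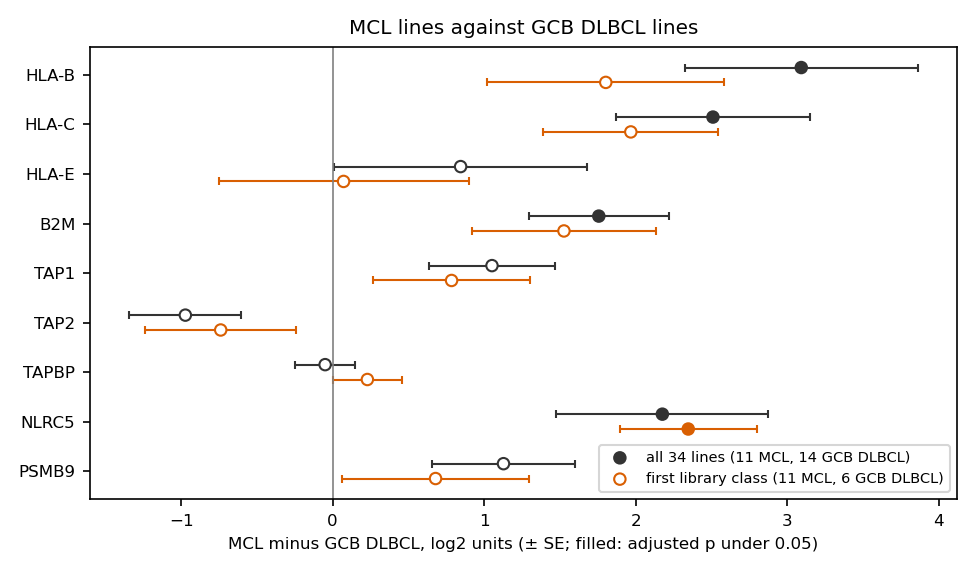
Difference of MCL minus GCB DLBCL (horizontal axis, log2 units, ± SE) for each gene, in all 34 lines and in the first library class; filled points have an adjusted p under 0.05. HLA-B, HLA-C, B2M and NLRC5 are filled in 34 lines, and NLRC5 alone in the first class, at 2.35.

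Of 12 processing and loading partners, 6 rose in MCL against GCB DLBCL and 0 fell, where 11% of all genes rose and 12.7% fell, with a median difference of 0.91 over the list and -0.02 over all genes. The 4 largest were HLA-F at 2.91 ± 0.91 (adjusted p = 0.0214), PSME1 at 1.45 ± 0.33 (adjusted p = 0.00364), PSMB8 at 1.37 ± 0.45 (adjusted p = 0.0281) and HLA-G at 1.15 ± 0.35 (adjusted p = 0.0178). PSMB8 is an immunoproteasome subunit and PSME1 an activator cap subunit of the proteasome. Of 13 regulators, 2 rose and 0 fell, a share near that of all genes. They were IRF1 at 1.79 ± 0.47 (adjusted p = 0.00823), an interferon response factor, and NFYB at 0.81 ± 0.20 (adjusted p = 0.00523), a subunit of the factor that binds CCAAT boxes. Of 3 constitutive proteasome subunits, 2 rose, namely PSMB5 at 1.07 ± 0.27 and PSMB7 at 0.91 ± 0.23 (adjusted p = 0.00624 and 0.00748), and the immunoproteasome subunits PSMB8 and PSMB10 rose as well. Of the 28 genes of these 3 lists 0 passed limma's test in the first class, where 4 partners, 1 regulator and 1 constitutive subunit had an unadjusted p under 0.05 and 1.56% of all genes were called higher. On recovered reads in 34 lines, limma-voom called 1 of the 12 partners, 1 of the 13 regulators and 2 of the 3 constitutive subunits, where it called 11.8% of all genes in either direction and 4.02% higher. Among marker genes in 34 lines, PDGFRB (1.80) and ITGAM (1.68) rose and CD22 fell by 1.59 in MCL; the part of other cells in the differences was not tested.

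Lines low in a member were taken as those more than 4 log2 units below the gene's median over the 34 lines. There were 14 such gene and line pairs in 7 lines, over 5 of the 9 genes, which is 4.58% of member values against a background of 0.739% for the 4047 genes with a median of at least 10.7. The lines were 5 of GCB DLBCL, 1 of MCL and 1 of ABC DLBCL, and 4 of the 7 were second-class libraries. Medians of the first and second class were 15.23 and 11.42 for HLA-B, and 13.86 and 11.85 for HLA-C. They were 12.82 and 12.47 for HLA-E, and 11.24 and 11.26 for NLRC5. All second-class lines but NU-DUL-1 are of GCB DLBCL, so class and pathology cannot be told apart in these medians. Within GCB DLBCL the medians of the first and second class were 13.18 and 11.28 for HLA-B, and 12.52 and 11.79 for HLA-C. The cause of these distances was not tested. Against the other second-class lines, HLA-B lay at -5.52 in DB and at -2.67 in OCI-Ly1. WSU-DLCL2, also second-class, was at 10.29 in HLA-B and 9.43 in HLA-C, nearer to the second-class medians of 11.42 and 11.85 than to those of all lines. Intervals below are exact 95% Poisson intervals and cover counting error only.

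DB, a GCB DLBCL line with 4.07 M reads, had 6 reads of HLA-B (1.47 CPM, interval 0.54 to 3.21), 3 of HLA-C and 2 of HLA-E, against medians of 717, 334 and 187 CPM over 34 lines. Its TAP2 was the highest of all lines at 12.24, its TAPBP 12.42 and its TAP1 10.67. OCI-Ly1, also GCB DLBCL, had 87 reads of HLA-B, 7 of HLA-E (1.45 CPM) and 11 of NLRC5 (2.27 CPM). REC-1, the MCL line with 89.5 M reads, had 97 reads of HLA-E (1.08 CPM, interval 0.88 to 1.32) and 2144 of HLA-B, while its HLA-C was at 12.23.

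WSU-DLCL2 had 110 reads of HLA-B, 59 of HLA-C and 0 of NLRC5, and SU-DHL-6 had 0 reads of NLRC5. The exact upper limit for 0 reads at 2.97 M reads is 1.24 CPM in each line. The median of NLRC5 over 34 lines was 57.4 CPM, and how far these 2 lines lie below it is bounded only by that limit. HT, a first-class line with 84.0 M reads, had 230 reads of NLRC5 (2.74 CPM). OCI-Ly10 had 74 reads of TAP2 (0.86 CPM) and lay at -3.29 from the median in both TAP1 and PSMB9. NLRC5 in HT is just inside the limit at -4.15, and NLRC5 in SU-DHL-10 just outside at -3.76. No line was low in B2M by this rule, the 2 lowest being DB at 12.75 and Daudi at 12.84.

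**Figure D3:**
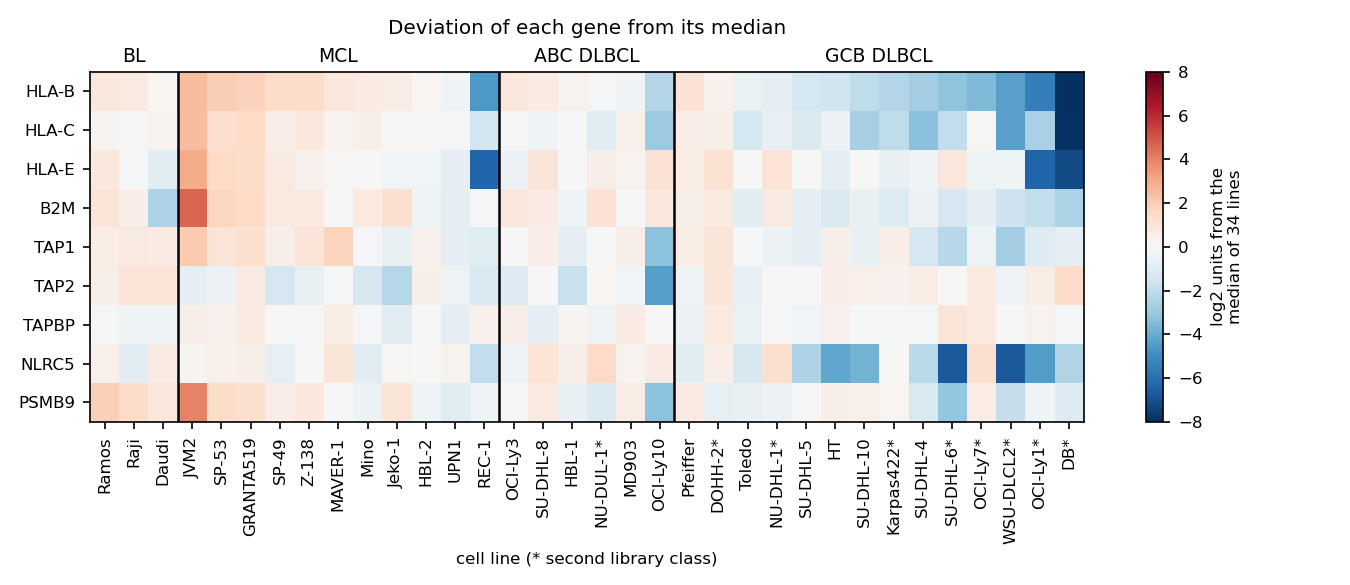
Deviation of each of the 9 genes (rows) from its own median over 34 lines, in log2 units, with lines in columns by pathology and ordered by HLA-B; asterisks mark second-class libraries. The 3 lines DB, OCI-Ly1 and REC-1 are blue in HLA-B and HLA-E, OCI-Ly10 in TAP1, TAP2 and PSMB9, and JVM2 is red in B2M at 4.65.

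DB, OCI-Ly1 and REC-1, the 3 lines low in HLA-E, were also the 3 lowest of 34 for HLA-DRA, a chain of MHC class II, with 8, 0 and 16 reads of 4.07, 4.84 and 89.5 M, and OCI-Ly10 was the next at 59.4 CPM; this gene was looked at after the values were seen. The class II transactivator CIITA was at 2.70 CPM in DB, its lowest line, 128 CPM in OCI-Ly1 and 44.9 CPM in REC-1, against a median of 112 CPM over 34 lines. RFX5, a subunit of the factor bound to the X box of both classes, was at 70.7, 186 and 81.9 CPM in these lines, against a median of 120 CPM. The other subunits were at 15.5, 7.43 and 9.02 CPM for RFXAP (median 14.8 CPM) and at 44.4, 44.4 and 88.4 CPM for RFXANK (median 52.6 CPM). IRF1 was at 2.95 and 3.10 CPM in DB and OCI-Ly1, from 12 and 15 reads, and at 29.1 CPM in REC-1, where its log2 value was 0.11 above the median.

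The stretch of chromosome 6 that holds these genes, from HLA-F to past TAPBP, was read gene by gene in 4 of these lines, with the lines and the limits chosen after the values were seen. Of its 77 protein-coding genes with a median over 8.5, 12 in DB, 11 in OCI-Ly1, 14 in REC-1 and 10 in OCI-Ly10 lay more than 3 log2 units below the median of the other lines of the same library class. All were HLA genes, or in OCI-Ly10 also TAP1, TAP2, PSMB8 and PSMB9, except LTA and LTB in DB and LTA in REC-1. The 57 genes of the stretch that are neither HLA genes nor processing genes, LTA and LTB included, had a median deviation of -0.51 in DB, 0.50 in OCI-Ly1, 0.31 in REC-1 and -0.72 in OCI-Ly10.

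**Figure D4:**
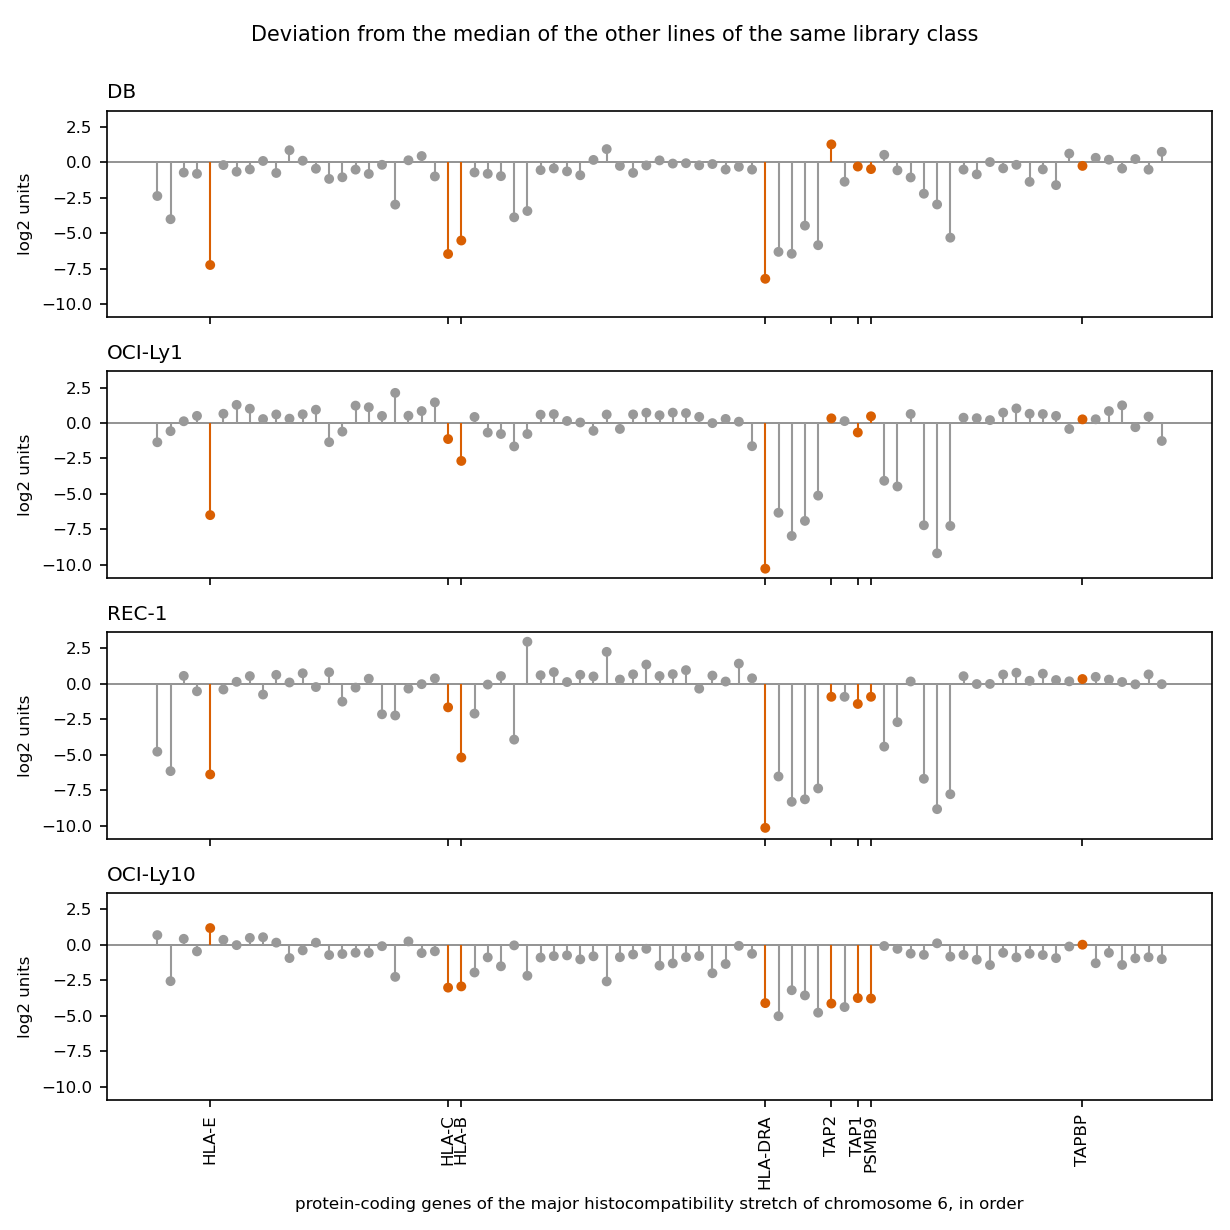
Deviation (vertical axis, log2 units) of 77 genes of the chromosome 6 stretch from the median of the other lines of the same library class, in gene order (horizontal axis), for 4 lines; orange marks the genes named on the axis. In DB, OCI-Ly1 and REC-1 the deepest stems are HLA genes, with HLA-DRA at -8.22, -10.27 and -10.15, while in OCI-Ly10 TAP1, TAP2 and PSMB9 also dip, to between -3.76 and -4.14.

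Likeness between members across the lines was described by Spearman's rho over 34 lines and, beside it, over the 25 first-class lines, which share library class and differ in depth. HLA-B followed HLA-C (0.87 and 0.89), TAP1 (0.79 and 0.80) and B2M (0.75 and 0.72), and TAP1 followed PSMB9 (0.73 and 0.78), whose start lies 488 bases from its own. HLA-B with NLRC5 gave 0.38 and 0.39, and TAP1 with TAP2 gave 0.18 and 0.36. HLA-B with TAP2 gave -0.27 and -0.06, and with PSMB9 0.65 and 0.68. The median over the 36 pairs was 0.40 and 0.36.

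**Figure D5:**
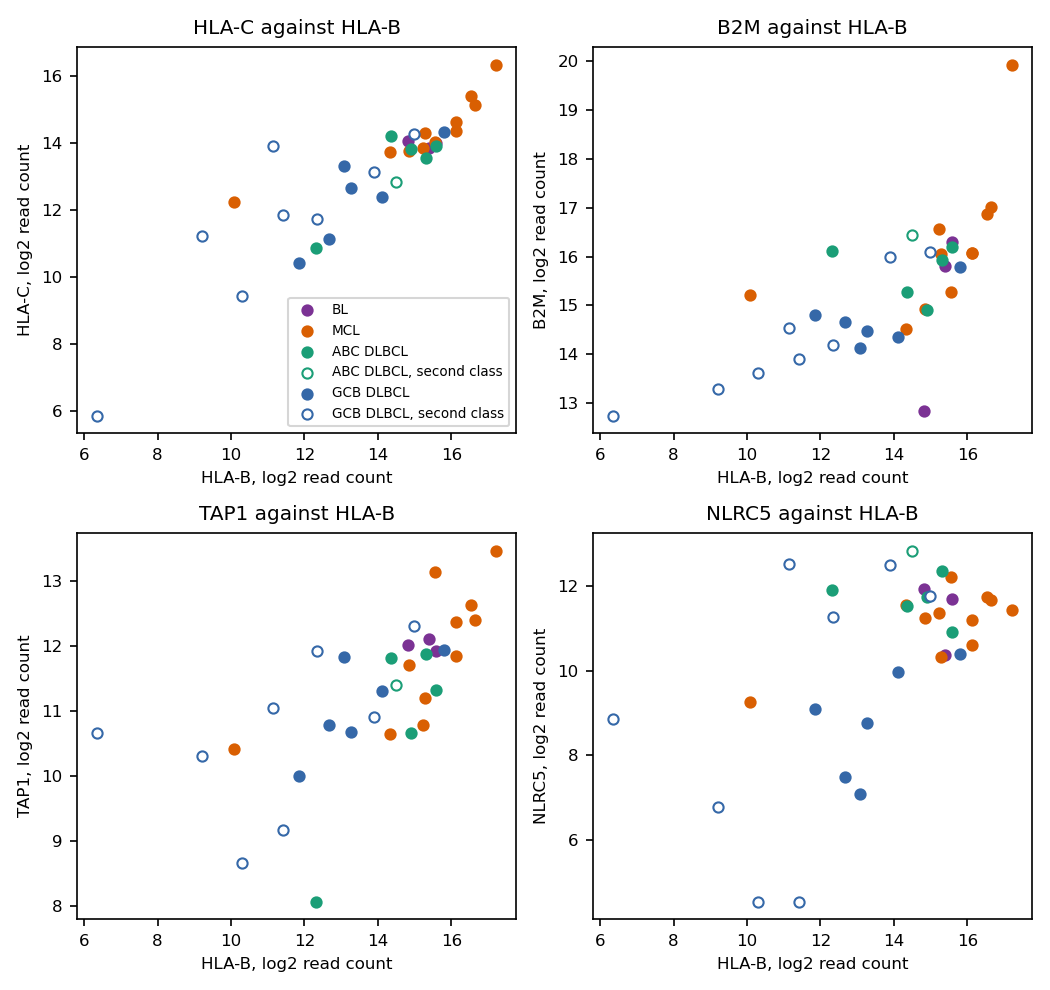
HLA-C, B2M, TAP1 and NLRC5 (vertical axes) against HLA-B (horizontal axes), in log2 read counts, 1 point a line, coloured by pathology with second-class libraries open. HLA-C rises with HLA-B (rho 0.87), and NLRC5 less so (rho 0.38); Daudi is the BL point low in B2M at 12.84.

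Among all other genes kept, 4 of the 5 most like HLA-B by rho over the first class were XXbac-BPG248L24.12 (0.89), HLA-F (0.83), ERLEC1 (0.83) and HLA-G (0.82), with 0.83, 0.84, 0.69 and 0.63 over 34 lines. For B2M the 5 were ETHE1 (0.85), HIST1H2BK (0.80), AC241585.1 (0.79), BRI3 (0.78) and PIGC (0.78), with 0.80, 0.60, 0.55, 0.67 and 0.72 over 34 lines. For NLRC5 the 5 were OAS2 (0.73), an interferon-induced gene, and ANKRD10, CHD2, OGT and RP11-693J15.5 (0.71 each), of which OAS2 kept 0.74 over 34 lines and the others gave 0.26 to 0.47. HLA genes share stretches of sequence and differ between alleles, so how their reads were divided is uncertain, and their likeness can hold shared reads.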

How the data were processed

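The values are those of 1 table deposited by the authors, variance-stabilised log2 read counts of 31975 genes in 34 libraries. Per the submitters' processing notes, STAR 2.5.3a, R 3.6.1, DESeq2 1.26.0 and GRCh38 were used; the counter, annotation release and strand setting are not given in the sources used here. Unless reads are counted by strand, those of overlapping or antisense genes cannot be told apart. Inverting the transform gave whole reads for 100% of values (tolerance 0.05), and library totals of 2.55 to 165 M reads; differences near 0 reads are compressed. CPM is recovered reads per 1 M reads of the library.

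Genes with more than 1 log2 unit above the lowest value in at least 3 lines were kept (22167). In R 4.3.3, limma 3.58.1 fitted 1 mean for each pathology, its prior variance following intensity. For each contrast and for the F test, Benjamini-Hochberg adjustment ran over all kept genes (threshold 0.05). The fit was also run on simulated reads with known changes. These held no difference between the library classes beyond depth, so the run cannot address the classes. Python 3.11.15, NumPy 2.4.6, SciPy 1.17.1 and matplotlib 3.10.9 were used for the rest. Lines are the replicates, and p-values set differences between pathology means against the spread between lines, which the pathologies share in the fit. Alternatives were other scalings, filters and priors, library-class choices, limma-voom on recovered reads, log2 CPM with a pseudocount of 1, and leaving out each line. The table had 0 columns that were not used.

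Named genes were the 9 members, the listed partners and regulators past the threshold (at most 4 a list) and the 5 genes most like each of NLRC5, HLA-B and B2M, of which 1 is not reported here. Members and lists were chosen with earlier results of these data known. Promoters are RefSeq, GRCh38.p14.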

Additional observations from a re-analysis of the deposited data

Results flagged for a closer look

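TAP1 in OCI-Ly10 was at 8.08, far below the other 5 ABC DLBCL lines: its gap to the nearest of them is 0.68 of the whole range of the group. The test was run on 9 groups, 1 was flagged, and chance flags about 1 in 20.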

How the results depend on the processing

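Of 9 members, 4 were called for MCL against GCB DLBCL. In the first library class only 1 was called, and 1 without the shallow libraries, 0 with library class as a covariate, and 4 or 5 under the other settings; leaving out a line gave 4 to 6. For ABC DLBCL against GCB DLBCL 0 were called, but 1 in the first class, 1 without the shallow libraries and 1 with limma-voom on recovered reads; leaving out a line gave 0 to 1. The F test called 5, but 1 in the first class, 1 without the shallow libraries, 0 with the class as a covariate, 3 in the re-analysed lines, 3 after quantile normalization, 2 on log2 CPM and 2 with limma-voom; leaving out a line gave 2 to 5, with 2 without SU-DHL-6 and 2 without WSU-DLCL2, and 3 without any 1 of DB, Karpas422, OCI-Ly1, GRANTA519, SP-49, SP-53 and Z-138. The remaining contrasts called 0 throughout, also with each line left out (0 to 0). Lines low in a member made 14 pairs, 21 at a limit of 3, 8 at a limit of 5 and 13 on log2 CPM.

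TAPBP in MCL minus GCB DLBCL was 0.23 in the first class, 0.23 without the shallow libraries and 0.12 with the class as a covariate, and -0.11 to 0.043 with a line left out. HLA-B, HLA-C, B2M and NLRC5 kept their sign in MCL minus GCB DLBCL. Over all genes, 5245 were called there, and 628 in the first class, 543 without the shallow libraries, 522 with the class as a covariate and 2619 with limma-voom. The F test called 2937 genes, and in the same order 788, 705, 589 and 1632, and 1908 on log2 CPM. ABC DLBCL minus GCB DLBCL had 161, and 50, 44 and 26 under the first 3 settings and 92 in the re-analysed lines. BL minus GCB DLBCL had 34, and 22 without the shallow libraries, 11 with the covariate, 52 in the re-analysed lines, 75 after quantile normalization, 55 with no filter and 17 with limma-voom. BL minus ABC DLBCL had 26, and 119 in the first class, 85 without the shallow libraries, 8 in the re-analysed lines, 49 after quantile normalization and 71 with limma-voom. BL minus MCL had 259, and 41 in the re-analysed lines and 169 on log2 CPM. Median-centring called 1473 genes higher and 4429 lower for MCL minus GCB DLBCL, against 2436 and 2809 in the main fit. Its median over all genes was -0.17, against -0.02. For the same contrast the class covariate gave 387 and 135, leaving out the shallow libraries 339 and 204, and limma-voom 892 and 1727 with a median of -0.27. In MCL minus GCB DLBCL, TAP1 passed without any 1 of 6 lines (OCI-Ly10, DOHH-2, HT, Pfeiffer, REC-1 and UPN1; lowest adjusted p = 0.0371), TAP2 without any 1 of 8 (NU-DUL-1, OCI-Ly10, SU-DHL-8, Pfeiffer, Toledo, GRANTA519, HBL-2 and MAVER-1; lowest adjusted p = 0.0154, without OCI-Ly10) and PSMB9 without UPN1 (adjusted p = 0.0484). TAP2 passed in ABC DLBCL minus GCB DLBCL without NU-DUL-1 (adjusted p = 0.0358), and NLRC5 there without NU-DHL-1 (adjusted p = 0.047). The cause was not tested. No paired analysis was possible because each library is a different line and replicate numbers were given in accession order. Depth limits low counts most in the 8 shallow libraries.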
